A study of Mus musculus with 4 samples.

Results

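The semaphorin, plexin and neuropilin genes Sema3a, Sema3c, Sema3d, Plxna2, Plxna4, Plxnd1, Nrp1 and Nrp2 are described here across gated cell groups, stages and genotypes of the mouse pharyngeal apparatus. These 8 genes are a list of guidance genes of the outflow tract. All 8 were found by Ensembl identifier in the 4 gene tables, among 27514 identifiers that the tables share. They were measured by droplet single-cell RNA-seq of Swiss Webster embryos in 4 libraries, 1 per group, so no value has a replicate. Both genotypes carried 1 Tbx1 allele with Cre and 1 Rosa26-GFPflox allele, and cells that were GFP positive and negative for the dead-cell dye DAPI were sorted. The control (Ctrl) was Tbx1Cre/+;Rosa26-GFPflox/+ and the conditional knockout (cKO) was Tbx1Cre/flox;Rosa26-GFPflox/+, each at embryonic day (E) 8.5 and at E9.5. The tissue was the upper part of the body at E8.5 and the pharyngeal apparatus and heart at E9.5. The paper's sample summary lists the E9.5 tissue of both genotypes as including the back. It also lists each library as a pool of embryos, with fewer embryos in cKO than in Ctrl at both stages. Cre from the Tbx1 locus marks only cells that have expressed Tbx1 and their descendants, so the sort leaves out other sources of the same genes in the embryo. At E8.5 the Ctrl library had 1434 cells and the cKO library 1090, and at E9.5 they had 5453 and 6266.

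Class 3 semaphorins such as Sema3a, Sema3c and Sema3d are secreted guidance cues. They bind neuropilins (Nrp1 and Nrp2), which have short cytoplasmic tails and pass the signal on through plexins of the A type and through plexin D1. In the heart this system is known for Sema3c, which is made in outflow tract myocardium and is needed for septation of the outflow tract, and for Plxnd1, an endothelial receptor needed for normal aortic arch arteries and septation. Nrp1 and Nrp2 also serve as co-receptors for vascular endothelial growth factors. Plxna2 and Plxna4 are best known as semaphorin receptors of neural crest cells and axons, Sema3a as an axon repellent, and Sema3d as a cue for venous endothelium.

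Levels were UMIs, which count captured molecules, per 1000000 UMIs of the shared genes (UPM) in the summed cells of a group, with the 95% Poisson interval in brackets. Differences were log2 ratios of UPM with exact 95% binomial intervals. All intervals cover counting error only and hold nothing of the variation between embryos or library preparations. Cells were placed in groups by gates on marker genes, after each cell had been thinned to 10000 UMIs. In Ctrl E9.5 the gates held 396 endothelial cells, 114 cardiomyocytes, 642 epithelial, 300 branchiomeric muscle (BrM), 198 anterior second heart field (aSHF), 142 somitic and 1722 mesenchymal cells. A further 435 cells had Arg1 with Rdh10 or Vamp8, the markers listed for multilineage progenitors (MLPs). That gate was broader than its name, since it took 30.6% of the cells of Ctrl E8.5 and its cells there carried the somitic markers Tcf15 and Meox1 at a summed 254 UPM against 52.6 UPM in the aSHF gate. It is therefore called the Arg1 gate here. The mesodermal gates were filled in the order Arg1, BrM, aSHF, posterior second heart field, somitic and mesenchyme. Each took only cells that the gates before it had left. From 12.2% (Ctrl E9.5) to 36.1% (cKO E8.5) of the cells with at least 10000 UMIs passed several of them. The markers of the aSHF gate were shared with heart muscle, at a summed 522 UPM in the aSHF gate and 1352 UPM in cardiomyocytes of Ctrl E9.5. In Ctrl E9.5 the endothelial list summed to 1204 UPM in the endothelial gate, against at most 100.2 UPM elsewhere. The cardiomyocyte list summed to 15115 UPM in the cardiomyocyte gate, against at most 107 UPM elsewhere. These gates were set on the same markers, so the sums follow from the gating and do not check the labels. Neural crest, a well-known user of these receptors, was nearly missing from the sort, with 4 to 13 gated cells per library, and is not described. Cardiomyocytes, BrM and epithelial cells were too few at E8.5, under 30 in 1 or both libraries, to be compared between genotypes.

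The 4 libraries differed in ways that bear on every comparison below. Median depth was 15887.5 to 23883 UMIs per cell. The cKO E9.5 library had been counted on a longer gene table than the other 3, so genotype, library and gene table cannot be told apart at E9.5. Pairs of libraries shared 2 to 55 cell barcodes, at most 1.01% of the smaller library. The targeted gene Tbx1 was at 86.4 UPM in Ctrl E8.5, 118 UPM in cKO E8.5 and at 103 UPM and 134 UPM in the same genotypes at E9.5. It was thus higher in the libraries labelled cKO, and whether a 3′ count reads the floxed part was not checked, so these values do not check the labels. The median gene had a log2 ratio of cKO over Ctrl between -0.26 and -0.19 in the cell groups at E9.5 and between -0.00 and 0.04 at E8.5, and differences are read against it. A gene was called where it lay at least 1.5-fold from the median gene with its whole interval on that side, among genes with at least 50 UMIs in both sums together.

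Sema3c lies on chromosome 5 from 17574816 to 17730268 (GRCm38.p6), the same chromosome as Sema3a (13124822 to 13603485) and Sema3d (12383161 to 12588953). In Ctrl E9.5, Sema3c was highest in cardiomyocytes at 86.2 UPM (73.6 to 100.4), and the aSHF gate at 30.2 UPM (24.7 to 36.4) and the Arg1 gate at 29.4 UPM (25.7 to 33.5) followed, with overlapping intervals. Epithelial cells held 17.2 UPM (15.03 to 19.7), mesenchyme 13.6 UPM (12.3 to 14.9), BrM 9.39 UPM (7.16 to 12.1), somitic cells 8.10 UPM (4.88 to 12.7) and endothelial cells 1.21 UPM (0.579 to 2.22). Thus the ligand had its highest level in heart muscle and was near 0 in endothelium. At 10000 UMIs per cell, 42.1% (32.9% to 51.7%) of cardiomyocytes had a Sema3c UMI, against 1.52% (0.558% to 3.27%) of endothelial cells. Before thinning the shares were 53.5% and 2.53%. Among the cardiomyocytes, those with the second heart field gene Isl1 had 96.99 UPM of Sema3c and those without it 64.4 UPM, a log2 ratio of 0.59 (0.07 to 1.14). In cKO E9.5 the same split gave 54.0 and 63.0 UPM, with a log2 ratio of -0.22 (-0.99 to 0.52) that has the opposite sign. This split was chosen after the levels had been seen.

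The 250 bases before the start of Sema3c and of Nrp2 are shown because these are the ligand that was lower in the aSHF gate of cKO and the receptor that was higher in its mesenchyme. They are RefSeq sequences of build GRCm38.p6, both on the plus strand, from chr5:17574566-17574815 for Sema3c and chr1:62703067-62703316 for Nrp2. Capitals mark GGTGTGA, letters of the half-site that T-box factors such as Tbx1 are known to bind, searched on both strands.
Sema3c: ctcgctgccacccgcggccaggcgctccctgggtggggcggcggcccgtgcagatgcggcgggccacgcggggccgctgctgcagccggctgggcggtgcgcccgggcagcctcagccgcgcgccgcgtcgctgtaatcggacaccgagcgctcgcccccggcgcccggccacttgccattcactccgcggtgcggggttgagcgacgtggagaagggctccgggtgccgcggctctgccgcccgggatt
Nrp2: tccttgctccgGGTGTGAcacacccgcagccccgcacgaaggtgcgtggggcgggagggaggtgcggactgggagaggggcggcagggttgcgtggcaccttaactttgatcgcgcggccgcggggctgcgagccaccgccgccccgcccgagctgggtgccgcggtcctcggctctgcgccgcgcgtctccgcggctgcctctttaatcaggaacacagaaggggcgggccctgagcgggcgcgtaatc
The Nrp2 window held the motif once and the Sema3c window did not hold it. Of the 7 members with a listed window, 1 had a match in its 250 bases, and of all 32851 windows of the same length 3.33% did. Only the first listed window of each member was searched, and some, such as those of Sema3a and Nrp1, lay inside the gene coordinates given here. A match is a description of the letters and not evidence of binding.

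Sema3a had a flatter pattern. Its level in Ctrl E9.5 was 24.9 UPM (18.4 to 33.0) in cardiomyocytes, 10.98 UPM (9.83 to 12.2) in mesenchyme and 2.42 UPM (1.48 to 3.73) in endothelial cells. The intervals of neighbouring gates overlapped from mesenchyme down to the Arg1 gate at 7.36 UPM, so neighbours among these 6 gates cannot be ordered by Sema3a. Sema3d was mainly epithelial in Ctrl E9.5. It stood at 18.8 UPM (16.5 to 21.4) in the epithelial gate and at 1.95 UPM or lower in the other 7, with 0 UMIs in cardiomyocytes. At 10000 UMIs per cell, 0 of those 114 cells had a UMI, which allows a share of cells with a UMI of up to 2.63%, and in cKO E9.5 the gate held 4 UMIs. The epithelial gate held 80.1% of all Sema3d UMIs of the classed cells of Ctrl E9.5 and 37.0% of those of cKO E9.5. At E8.5, with too few epithelial cells to report, the Arg1 gate held 54.5% of them in Ctrl and 71.7% in cKO.

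Plxnd1, on chromosome 6 from 115954811 to 115995339, had the sharpest pattern among the receptors. In Ctrl E9.5 it was at 92.8 UPM (86.3 to 99.6) in endothelial cells, and 57.8% (52.8% to 62.7%) of them had a UMI. The next gate, cardiomyocytes, was at 4.67 UPM (2.14 to 8.87), and epithelial cells were lowest at 1.27 UPM (0.727 to 2.07) with 0.779% (0.253% to 1.81%) of cells positive, against 57.8% in endothelium at the same depth. Before thinning, 79.0% of endothelial and 2.49% of epithelial cells were positive. Among the 7 gates other than the endothelial one, intervals of neighbours overlapped throughout. Plxna4, on the same chromosome from 32144543 to 32588192, was highest in cardiomyocytes at 22.3 UPM (16.2 to 30.1), followed by the Arg1 gate at 8.52 UPM (6.59 to 10.8) and the aSHF gate at 6.98 UPM (4.52 to 10.3). In BrM it was at 0.626 UPM (0.171 to 1.60). Plxna2, on chromosome 1 from 194619791 to 194816869, was at 15.9 UPM (12.1 to 20.6) in the aSHF gate and 13.8 UPM (11.3 to 16.7) in the Arg1 gate, with overlapping intervals. From endothelial cells at 5.92 UPM down to cardiomyocytes at 4.15 UPM (1.79 to 8.19), the intervals of its 5 lower gates overlapped. The 3 plexins were thus led by endothelium, by heart muscle and by the aSHF and Arg1 gates respectively. For Plxna2, epithelial cells came next at 9.78 UPM, with an interval that overlapped that of the Arg1 gate.

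The neuropilins were found more widely. Nrp2, on chromosome 1 from 62703317 to 62818692, was at 273 UPM (249.8 to 297) in cardiomyocytes, 134 UPM (125 to 143) in BrM and 116 UPM (109 to 123) in endothelial cells, with no overlap of these intervals. The aSHF gate was at 35.5 UPM (29.6 to 42.2), the Arg1 gate at 15.4 UPM (12.7 to 18.4) and epithelial cells at 11.1 UPM (9.36 to 13.1). Nrp1, on chromosome 8 from 128358591 to 128505476, was led by endothelial cells at 100.4 UPM (93.7 to 107) and somitic cells at 82.7 UPM (71.5 to 95.2), whose intervals overlapped, followed by cardiomyocytes at 61.3 UPM (50.7 to 73.4) and mesenchyme at 57.8 UPM (55.1 to 60.5). BrM was lowest for Nrp1, at 12.99 UPM (10.3 to 16.1), and was second for Nrp2. In the Isl1-positive cardiomyocytes Nrp2 stood at 319.7 UPM and in the Isl1-negative ones at 177 UPM, a log2 ratio of 0.85 (0.55 to 1.16). The same split in cKO gave 0.89 (0.49 to 1.30). The lowest shares of positive cells at equal depth were 12.3% for Nrp1, in BrM, and 9.81% for Nrp2, in epithelial cells.

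**Figure D1:**
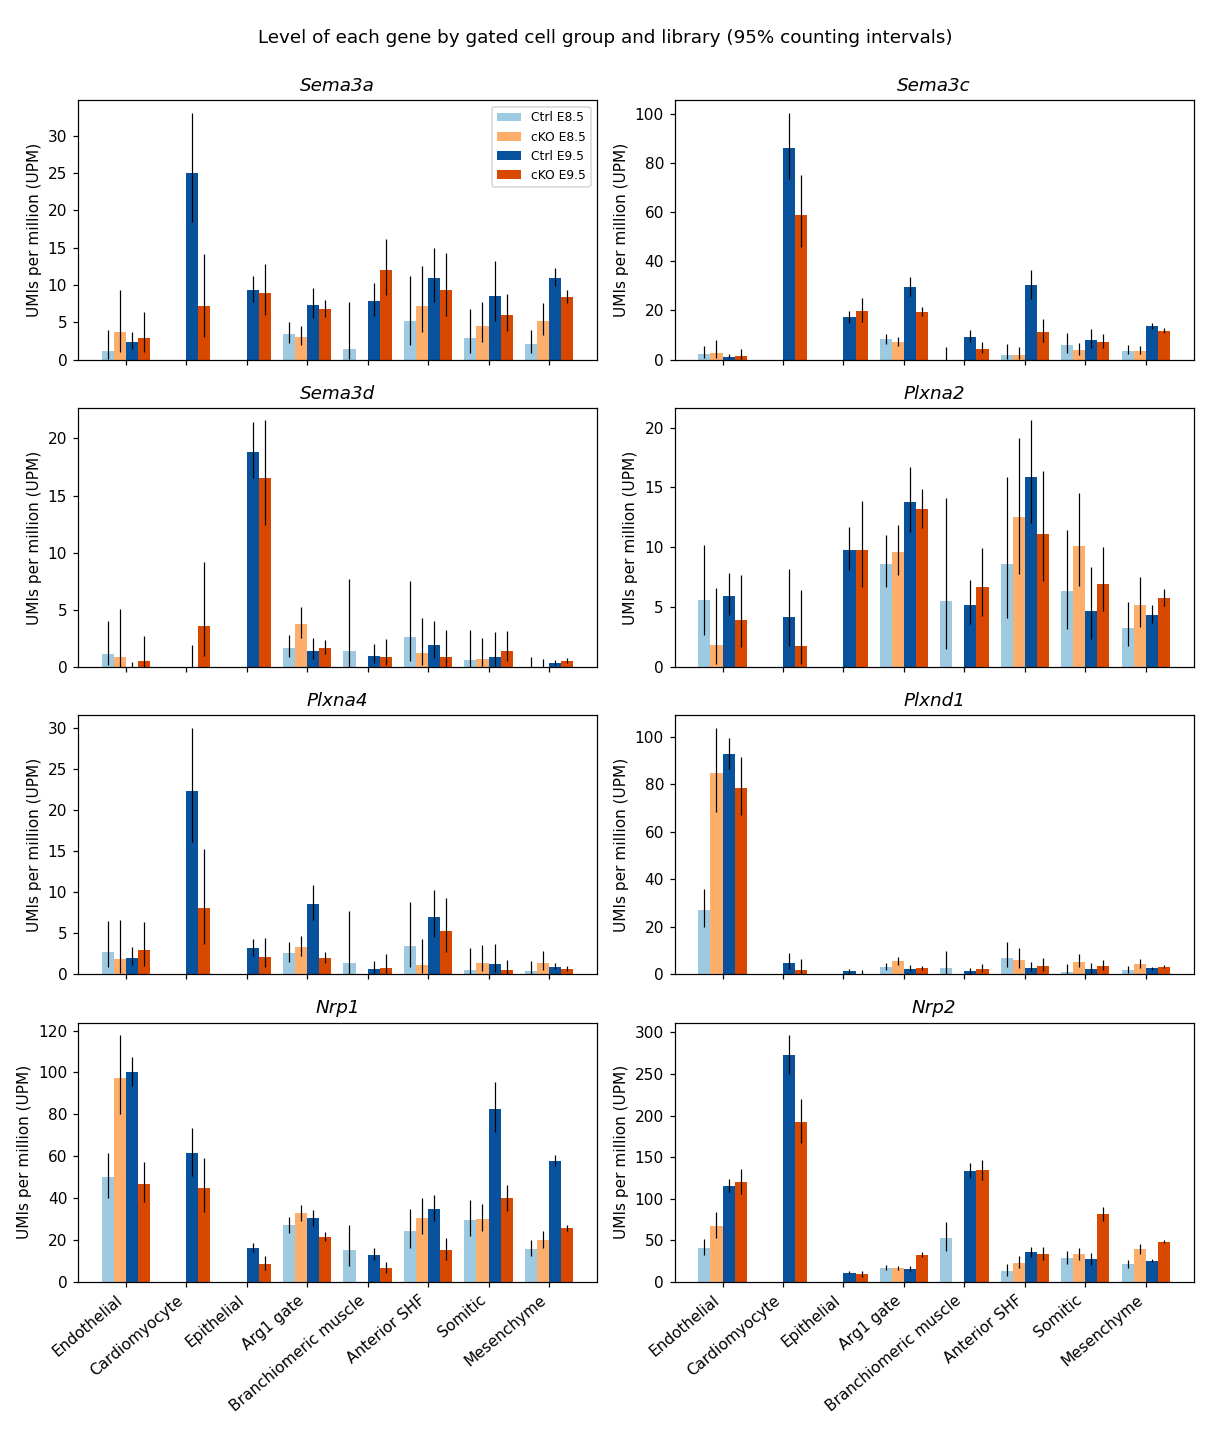
Level of each gene in UPM (vertical axis, linear, a separate scale per gene) in 8 gated cell groups, with 1 bar per library and 95% Poisson intervals. Bars are missing where a library held under 30 cells of the gate. Plxnd1 was highest in endothelial cells and, at E9.5, Sema3d in epithelial cells, and Sema3c, Sema3a, Plxna4 and Nrp2 were highest in Ctrl E9.5 cardiomyocytes.

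Receptor genes met in the same cells mainly in endothelium. In Ctrl E9.5, 83.1% of endothelial cells had a UMI of either neuropilin at 10000 UMIs per cell, 61.1% had one of the 3 plexins, and 51.8% had both. In cardiomyocytes the same shares were 83.3%, 25.4% and 21.1%, and in mesenchyme 50.9%, 6.74% and 3.60%. Nrp1 and Plxnd1 were found together in 33.8% of endothelial cells, and the product of their separate shares was 32.1%. Nrp1 and Nrp2 were found together in 31.8% of them, with a product of 33.0%, and both products lie inside the 95% interval of the measured share. For Nrp1 and Nrp2 the product lay outside it in the aSHF gate, at 8.59% (5.08% to 13.4%) with a product of 4.80%. It did so too in mesenchyme, at 5.75% (4.70% to 6.96%) with a product of 7.06%, but not in the other gates of Ctrl E9.5. Ligand and receptor also met in the same gate. In cardiomyocytes, Sema3c and Nrp2 were found together in 37.7% (28.8% to 47.3%) of cells, with a product of 32.5% that also lies inside the interval. At least 1 of the 3 semaphorins was detected in 51.8% of cardiomyocytes, 33.8% of aSHF, 32.4% of epithelial and 3.54% of endothelial cells of Ctrl E9.5. In cKO E9.5 the shares with a neuropilin and a plexin were 36.3% in endothelium and 8.06% in cardiomyocytes, and the shares with a semaphorin were 40.3% in cardiomyocytes, 12.7% in aSHF, 33.9% in epithelial and 6.19% in endothelial cells.

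The comparison of cKO with Ctrl at E9.5 asks how these genes differ where the second Tbx1 allele was floxed rather than wild type, in cells with Cre. Over the 8 gates, 41 pairs of member and gate had enough UMIs, and 16 were called, 11 lower and 5 higher in cKO. The background was 15.5% of all gene and gate pairs, 7.47% lower and 8.02% higher, and between 12.6% and 18.2% of genes in a single gate. Nrp1 accounted for 6 of the 11 lower calls, Sema3c and Plxna4 for 2 each and Sema3a for 1. Nrp2 accounted for 3 of the 5 higher calls, and Sema3a and Plxna2 for 1 each.

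Among the ligands, Sema3c was lower in the aSHF gate of cKO. The 4 libraries stood at 1.72 UPM (0.209 to 6.23) in Ctrl E8.5, 1.79 UPM (0.369 to 5.23) in cKO E8.5, and, at E9.5, 30.2 UPM (24.7 to 36.4) in Ctrl but 11.1 UPM (7.19 to 16.4) in cKO, from 2, 3, 108 and 25 UMIs. Ctrl E9.5 stood above the other 3 libraries, and its interval overlapped none of theirs. The log2 ratio at E9.5 was -1.44 (-2.13 to -0.80), against -0.15 in the cells outside the gate of the same libraries. Positive cells were 25.8% (19.8% to 32.4%) in Ctrl and 7.14% (3.32% to 13.1%) in cKO, and 32.8% and 15.1% before thinning. The aSHF markers themselves (Isl1, Fgf10, Nkx2-5 and Mef2c) summed to 522 UPM in the gated cells of Ctrl and 428 UPM in those of cKO, and the somitic markers to 20.7 and 60.9 UPM. Their part in the difference was not tested.

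BrM had less Sema3c in cKO too, at 4.47 against 9.39 UPM, a log2 ratio of -1.07 (-1.97 to -0.26) that rested on 16 UMIs in cKO and was not called when gates were set on the deposited counts. The aSHF markers summed to 171 UPM in BrM of Ctrl and 59.8 UPM in that of cKO, the BrM markers to 474 and 372 UPM and the somitic markers to 5.79 and 27.7 UPM, and their part was not tested. In the Arg1 gate the log2 ratio was -0.60 (-0.84 to -0.35), less than 1.5-fold from the median gene and not called. Limited to the Isl1-positive cells of that gate, 234 in Ctrl and 331 in cKO, it was -0.46 (-0.79 to -0.12). In cardiomyocytes it was -0.55 (-0.98 to -0.13), in mesenchyme -0.20 (-0.39 to -0.01) and in epithelial cells 0.19 (-0.24 to 0.59), none of them called. In all cells together Sema3c was at -0.19, close to the median gene.

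Sema3a was called in both directions. In cardiomyocytes it stood at 24.9 UPM (18.4 to 33.0) in Ctrl and 7.15 UPM (3.09 to 14.1) in cKO, for a log2 ratio of -1.80 (-3.09 to -0.71). This rested on 48 UMIs in Ctrl and 8 in cKO, just above the filter. In BrM it stood at 7.82 UPM (5.81 to 10.3) and 12.0 UPM (8.70 to 16.2), which gave a log2 ratio of 0.62 (-0.00 to 1.24). With 1 more marker in the gate the BrM value was 0.03 and no longer called, and the cardiomyocyte value was -2.13 with too few UMIs for a call. Sema3d was not called within the epithelial gate, where it stood at 18.8 UPM in Ctrl and 16.5 UPM in cKO, a log2 ratio of -0.19 (-0.64 to 0.24).

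**Figure D2:**
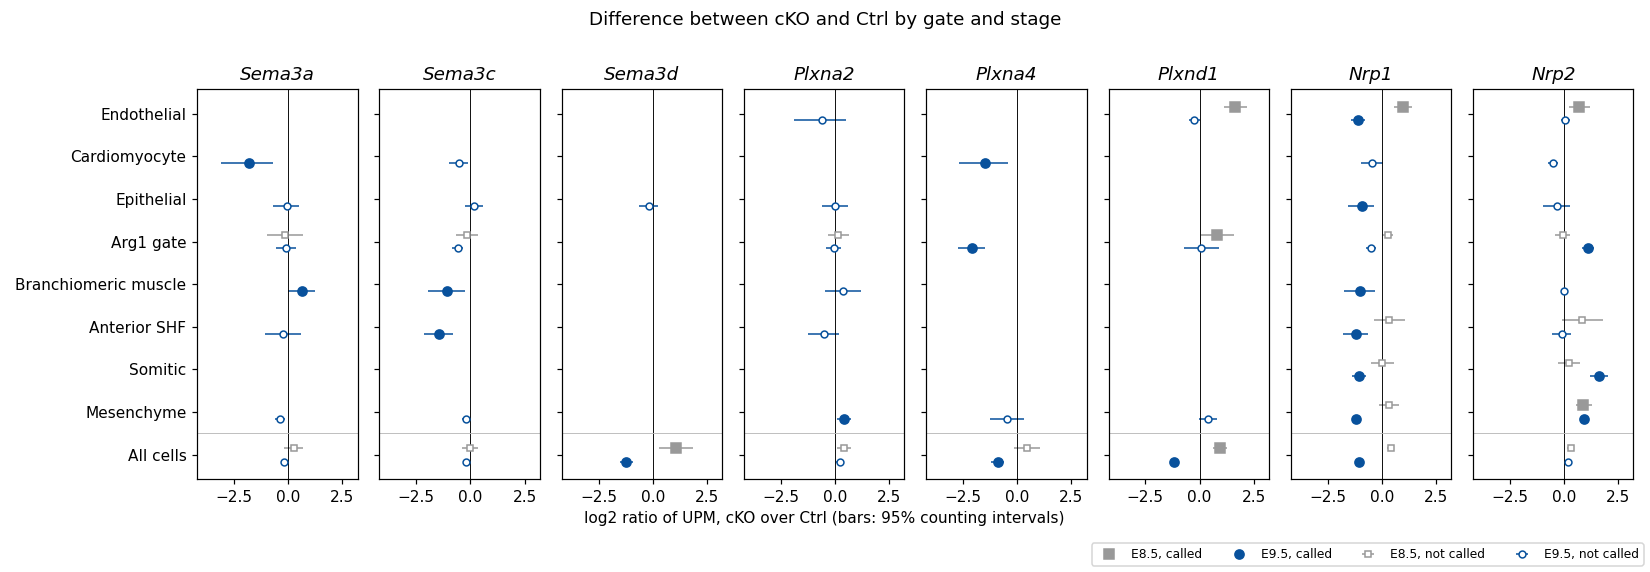
Log2 ratio of UPM in cKO over Ctrl (horizontal axis) for each gene in each gate and in all cells, at E8.5 (grey squares) and E9.5 (blue circles), with exact 95% intervals. Filled symbols were called and open ones were not, and pairs with under 50 UMIs are not drawn. Nrp1 lay below 0 in all 8 gates at E9.5, and Nrp2 lay above 0 in somitic cells, the Arg1 gate and mesenchyme and at 0.00 in BrM.

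Among the plexins, Plxna4 was lower in the Arg1 gate, at 8.52 UPM (6.59 to 10.8) in Ctrl and 1.98 UPM (1.41 to 2.71) in cKO, for a log2 ratio of -2.10 (-2.71 to -1.51) against -0.73 outside the gate. In the Isl1-positive cells of the gate it was 13.5 UPM in Ctrl and 2.93 UPM in cKO, a log2 ratio of -2.20 (-3.05 to -1.42). It was lower in cardiomyocytes as well, with a log2 ratio of -1.47 (-2.69 to -0.42) from 9 UMIs in cKO, and passed the UMI filter narrowly there. The Arg1 gate did not hold the same cells in both genotypes. Its aSHF markers summed to 349 UPM in Ctrl and 125 UPM in cKO and its somitic markers to 101 and 233 UPM, and the gate took 8.88% of Ctrl and 19.8% of cKO cells. Limited to Isl1-positive cells, the sums were 535 and 265 UPM for the aSHF markers and 66.1 and 192 UPM for the somitic ones. The part of this shift in the Plxna4 difference was not tested. Plxna2 was called higher in mesenchyme, at 0.41 (0.10 to 0.72), a call that was lost when levels came from the thinned counts and when gates were set on the deposited counts. In the aSHF gate its log2 ratio was -0.52 (-1.26 to 0.18) and it was not called.

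Plxnd1 and Sema3d were called over all cells at E9.5 and not within the endothelial and the epithelial gate, which in Ctrl held 79.7% and 80.1% of their UMIs and in cKO 35.3% and 37.0%. Over all cells of the E9.5 libraries, Sema3d, Plxna4, Plxnd1 and Nrp1 were called lower in cKO, 4 of the 8 members beside 11% of all genes. Plxnd1 stood at 10.8 UPM in Ctrl and 4.72 UPM in cKO, a log2 ratio of -1.20 (-1.35 to -1.04). Within the endothelial gate it stood at 92.8 UPM (86.3 to 99.6) and 78.5 UPM (66.9 to 91.6), which gave a log2 ratio of -0.24 (-0.49 to 0.01) with the median gene of that gate at -0.20. The endothelial gate took 8.08% of Ctrl and 2.04% of cKO cells. With the cKO level of each gate weighted by that gate's share of the UMIs of Ctrl, the log2 ratio of Plxnd1 over all classed cells moved from -1.23 to -0.14. Sema3d moved from -1.17 to -0.10 in the same way, beside an epithelial gate of 13.1% of Ctrl and 2.97% of cKO cells. Nrp1 moved only from -1.07 to -1.11 and Plxna4 from -0.95 to -0.72. Shares of gates depend on dissection and sorting, and with 1 library per group these cannot be told apart from genotype.

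**Figure D3:**
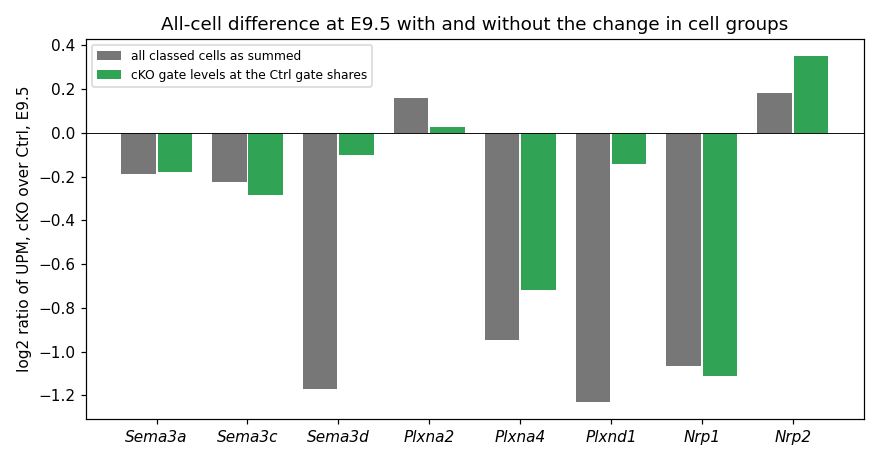
Log2 ratio of UPM in cKO over Ctrl at E9.5 for each gene over all classed cells (vertical axis), as summed (grey) and with the cKO gate levels weighted by the UMI shares of the gates in Ctrl (green). The Plxnd1 and Sema3d bars shorten to -0.14 and -0.10, and the Nrp1 bar stays at -1.11.

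The neuropilins moved apart at E9.5. Nrp1 had a log2 ratio below 0 in all 8 gates and was called lower in 6 of them, with 2.32% of the 5569 genes tested in every gate called lower in 6 or more. The values of the called gates were -1.21 in aSHF, -1.18 in mesenchyme, -1.10 in endothelial, -1.06 in somitic, -1.01 in BrM and -0.92 in epithelial cells. The 2 gates without a call were cardiomyocytes at -0.45 (-0.96 to 0.03) and the Arg1 gate at -0.50 (-0.73 to -0.26). In the Isl1-positive cells of the Arg1 gate Nrp1 stood at 15.8 UPM in Ctrl and 16.8 UPM in cKO, a log2 ratio of 0.08 (-0.37 to 0.55), and was not lower. The cells outside each called gate had a log2 ratio of -1.18 to -0.93, and no gate kept its lower call once that was taken off. Whether the gene table of cKO E9.5 has a part in the Nrp1 difference cannot be told apart from genotype here.

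In the endothelial gate Nrp1 stood at 50.01 UPM (40.2 to 61.5) in Ctrl E8.5, 97.6 UPM (80.0 to 118) in cKO E8.5, 100.4 UPM (93.7 to 107) in Ctrl E9.5 but 46.8 UPM (37.9 to 57.2) in cKO E9.5. The gate held 90, 46, 396 and 113 cells in these libraries, in the same order. Ctrl E8.5 and cKO E9.5 were the low libraries and cKO E8.5 and Ctrl E9.5 the high ones, and these pairs did not overlap each other. The log2 ratio of cKO over Ctrl was 0.96 (0.55 to 1.38) at E8.5 and -1.10 (-1.42 to -0.79) at E9.5. The 5 endothelial markers of the gate (Pecam1, Cdh5, Tie1, Esam and Egfl7) summed to 733, 992, 1204 and 879 UPM in the same 4 libraries, lower in Ctrl E8.5 and cKO E9.5 than in the other 2 libraries, as Nrp1 was. Their part in the Nrp1 difference was not tested.

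Nrp2 differed by cell group. It was higher in cKO in somitic cells, at 26.9 UPM (20.6 to 34.4) in Ctrl and 81.3 UPM (72.9 to 90.4) in cKO, for a log2 ratio of 1.60 (1.21 to 2.01). In mesenchyme it stood at 25.4 UPM (23.6 to 27.2) and 48.4 UPM (46.4 to 50.5), which gave a log2 ratio of 0.93 (0.81 to 1.05) against -0.04 outside the gate. In the Arg1 gate the log2 ratio was 1.09 (0.81 to 1.39), but in its Isl1-positive cells it was 0.24 (-0.23 to 0.72) and not called. BrM and endothelial cells, next after cardiomyocytes in level, had log2 ratios of 0.00 (-0.16 to 0.16) and 0.05 (-0.16 to 0.25). Cardiomyocytes had -0.50 (-0.74 to -0.27), on the lower side and not called. The somitic markers summed to 46.7 UPM in Ctrl and 94.2 UPM in cKO mesenchyme, and to 330.1 and 397 UPM in the somitic gate. Their part in the Nrp2 difference was not tested.

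**Figure D4:**
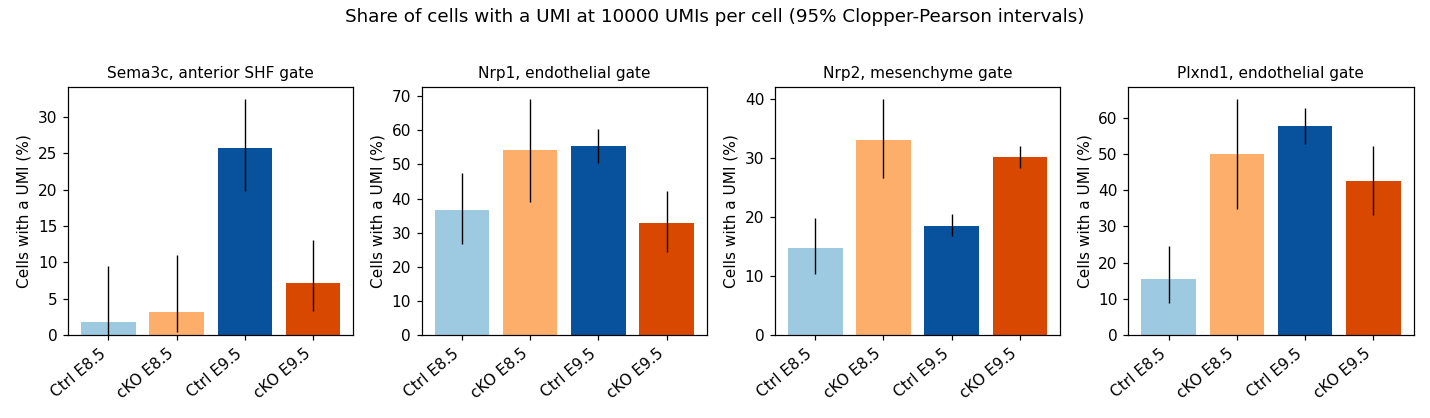
Share of cells with at least 1 UMI after thinning to 10000 UMIs per cell (vertical axis, percent) for Sema3c in the aSHF gate, Nrp1 and Plxnd1 in the endothelial gate and Nrp2 in mesenchyme, 1 bar per library with 95% Clopper-Pearson intervals. Sema3c-positive cells were 25.8% of Ctrl and 7.14% of cKO cells at E9.5, and Nrp2-positive mesenchymal cells were 18.5% and 30.1%.

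The paper's sample summary lists a slightly higher range of somite counts for cKO than for Ctrl at E8.5. Embryo age and genotype cannot be told apart there. At E8.5 the comparison of cKO with Ctrl had 5 gates and 15 member and gate pairs with enough UMIs. Of these, 5 were called, all higher in cKO, beside a background of 9% of pairs called in either direction and 5.66% called higher. Plxnd1 in endothelial cells was at 27.2 UPM (20.1 to 36.0) in Ctrl and 84.8 UPM (68.4 to 104) in cKO, for a log2 ratio of 1.64 (1.12 to 2.17), and positive cells were 15.6% (8.77% to 24.7%) and 50% (34.9% to 65.1%). The endothelial gate at E8.5 was small, with 90 cells in Ctrl and 46 in cKO, and every endothelial value of this comparison rests on them. In the Arg1 gate Plxnd1 had a log2 ratio of 0.81 (0.06 to 1.59), a call that was lost with thinned counts. Nrp2 was higher in mesenchyme at E8.5 as at E9.5, at 21.2 UPM in Ctrl and 39.2 UPM in cKO, a log2 ratio of 0.89 (0.53 to 1.26), and in endothelial cells at 0.69 (0.21 to 1.18). In the endothelial gate at E8.5 the mesenchyme markers summed to 319.5 UPM in Ctrl and 199 UPM in cKO, the somitic markers to 91.7 and 26.4 UPM and the Arg1-gate markers to 242 and 170.5 UPM, beside the endothelial list at 733 and 992 UPM. Their part in the Plxnd1, Nrp1 and Nrp2 values of that gate was not tested. Nrp1 outside the endothelial gate had log2 ratios of 0.02 to 0.34 in the somitic, Arg1, aSHF and mesenchyme gates and was not called. Sema3c in the Arg1 gate, its only tested gate, had a log2 ratio of -0.16 (-0.69 to 0.37). Over all cells, Sema3d and Plxnd1 were called higher, 2 of the 8 members beside 5.53% of all genes.

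The step from E8.5 to E9.5 was compared within each genotype, with the dissection differing between the stages. In Ctrl, 14 of 26 member and gate pairs over 6 gates were called, all higher at E9.5, where 11.3% of all pairs were called higher and 12% lower, 23.3% together. The median gene lay between 0.22 and 0.38 in the cell groups. Sema3c was higher in all 4 gates in which it had enough UMIs in both sums together. It passed that filter through E9.5 in the aSHF gate, with 108 UMIs against 2, and in BrM, with 60 against 0. The same held for Sema3c and Sema3a in mesenchyme, among other pairs. The E9.5 sum of each gate was the larger one, so the filter favoured genes with UMIs at E9.5. The shared direction of the calls may partly follow from this. The log2 ratio of Sema3c was 4.13 (2.24 to 7.19) in the aSHF gate, from 2 UMIs at E8.5, 1.88 (1.16 to 2.70) in mesenchyme and 1.84 (1.42 to 2.27) in the Arg1 gate. BrM had no Sema3c UMI at E8.5, which makes the rise at least 1.18 on the log2 scale against a floor of 3 UMIs in that sum. Plxnd1 rose in endothelial cells, with a log2 ratio of 1.77 (1.35 to 2.22).

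The neuropilins of Ctrl rose in some gates and not in others. Nrp1 had a log2 ratio of 1.89 (1.54 to 2.26) in mesenchyme, 1.48 (1.03 to 1.96) in somitic and 1.01 (0.69 to 1.34) in endothelial cells. Nrp2 had 1.49 (1.15 to 1.85) in endothelial cells, 1.46 (0.68 to 2.34) in the aSHF gate and 1.35 (0.88 to 1.86) in BrM, and -0.08 in somitic cells, where it was not called. In the Arg1 gate Nrp1 had 0.16 (-0.12 to 0.44) and was not called, and in its Isl1-positive cells it was called lower at E9.5, with -0.82 (-1.33 to -0.31). Sema3a rose in mesenchyme with a log2 ratio of 2.41 (1.46 to 3.55), from 9 UMIs at E8.5 and 332 at E9.5, so it passed the filter through E9.5. In cKO, 13 of 22 pairs over 5 gates were called, 7 higher and 6 lower, beside 22.5% of all pairs, 11.6% higher and 10.9% lower. Sema3c rose in the Arg1 gate of cKO with 1.41 (1.02 to 1.81) and in mesenchyme with 1.73. Nrp1 fell in cKO, with -1.06 (-1.47 to -0.65) in endothelial cells, -1.01 (-1.68 to -0.35) in the aSHF gate and -0.61 (-0.83 to -0.39) in the Arg1 gate. The comparisons across stage and genotype share libraries and are not independent of each other.

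The genes whose log2(UPM + 10) followed each member most closely over the 28 gate and library sums were named by rank of Pearson's correlation, among genes with at least 500 UMIs and no gate marker. For Plxnd1 they were Tmem255a, Flt4 and Tek, with r of 0.99, 0.98 and 0.98. Flt4 and Tek are endothelial receptor tyrosine kinases. For Sema3d they were Hs3st6, Cldn9 and Plet1, with r of 0.95 for each, Cldn9 being a tight junction gene. For Sema3c they were Kcnh2, a cardiac potassium channel, Tmem50b and Emc10, with r of 0.91, 0.90 and 0.89. Nrp1 was followed by Degs1, Ywhah and Ywhab, with r of 0.92, 0.88 and 0.83, and Nrp2 by Tnnt1, a troponin T gene, Sh3kbp1 and Mtss1, with 0.83, 0.80 and 0.77. The closest genes to Sema3a, Plxna4 and Plxna2 were 1700025G04Rik, Hdac5 and Phyhipl, with r of 0.88, 0.89 and 0.80. These sums share libraries and depth, so the correlations describe the pattern and carry no test.

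Among the 23 other semaphorin and plexin genes, 16 had enough UMIs in at least 1 gate at E9.5, and 9 of them were called in a gate, 5 lower in at least 1 gate and 4 higher. Over all genes, 41.6% of those tested in a gate were called in at least 1. The calls were 15 of 66 gene and gate pairs, beside 15.5% of all pairs. None reached 50 UPM in a gate of Ctrl E9.5, where Sema6a in epithelial cells was highest at 48.0 UPM (44.3 to 52.0). Sema3f, another secreted class 3 semaphorin, was higher in cKO in epithelial cells at 0.58 (0.14 to 1.01), the Arg1 gate at 0.59, somitic cells at 1.23 and mesenchyme at 0.56. At E8.5 it was higher in the Arg1 gate at 1.04 (0.56 to 1.54) and in mesenchyme at 1.37 (0.53 to 2.29). Sema6d, a membrane-bound semaphorin, was higher in mesenchyme at E9.5, with a log2 ratio of 1.01 (0.71 to 1.33), and was higher in the Arg1 gate at 0.57. Sema5a was higher in BrM at 0.66 (0.28 to 1.03) and in epithelial cells at 0.62, and Sema6a in somitic cells at 0.49. Lower calls were Plxnb2 in cardiomyocytes at -1.08 (-2.05 to -0.21), Plxna1 in BrM at -1.25 (-2.14 to -0.45), Sema4c in BrM at -0.91 and somitic cells at -1.10, Sema4b in the Arg1 gate at -0.96 and Sema4a in mesenchyme at -1.06.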

How the data were processed

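Single cells sorted for GFP were measured in 4 libraries with a droplet 3′ kit, and the submitters' processing notes name Cell Ranger 3.1.0 and GRCm38 (mm10). The authors deposited per-cell UMI counts, filtered to cell barcodes and not normalized. Total depth was 25391654 and 25847734 UMIs for Ctrl and cKO E8.5 and 94834703 and 104773150 for E9.5. Counts of the 27514 shared genes (99.4% to 99.9% of UMIs) were used. Cells under 10000 UMIs (84 to 718 per library) and cells in 2 or more lineage gates (2 to 58) were left out of the gates, 17.4% to 26.1% stayed ungated, and no doublet caller was run. Each gate was set on counts thinned to 10000 UMIs, and levels came from unthinned sums. A gate was used with 30 or more cells.

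With 1 library per group no test was run, and intervals (Poisson, conditional binomial, Clopper-Pearson) cover counting error only. The genes named were all 8 members, other semaphorin and plexin genes at 50 UPM or more in Ctrl E9.5 or called at E9.5, and the 3 genes most like each member. Members, lists and splits were chosen with earlier results of these data known. RefSeq coordinates were matched by symbol. Alternatives were stricter gates, overlapping gates, gates on the deposited counts, thinned levels, leaving out cells above 2.5 times the median depth, and other references for a ratio. Python 3.11.15, numpy 2.4.6, scipy 1.17.1, pandas 2.3.3 and matplotlib 3.10.9 were used.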

Additional observations from a re-analysis of the deposited data

Results flagged for a closer look

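Several log2 ratios pointed in opposite directions in a pair of stages, gates or genotypes, each called in its own comparison. The difference between the values was not tested in any of them, since each group is 1 library. Over all cells, Sema3d in cKO over Ctrl was 1.07 at E8.5 and -1.21 at E9.5, and Plxnd1 was 0.93 at E8.5 and -1.20 at E9.5. Nrp1 in the endothelial gate was 0.96 at E8.5 and -1.10 at E9.5, and in ungated cells 1.02 and -1.40. Sema3a at E9.5 was -1.80 in cardiomyocytes and 0.62 in BrM. From E8.5 to E9.5, Plxna4 in the Arg1 gate had a log2 ratio of 1.73 in Ctrl and -0.73 in cKO, and Nrp1 in the endothelial gate had 1.01 in Ctrl and -1.06 in cKO. The comparisons by stage and by genotype share libraries, so the last values repeat the Nrp1 difference above rather than add to it.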

How the results depend on the processing

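No paired analysis was possible because each group was 1 library, and no replicate could be left out. With 1 more marker per gate, the log2 ratio of cKO over Ctrl at E9.5 was -2.17 for Sema3c in the aSHF gate and 0.064 for Plxnd1 in the endothelial gate, and 9 of the 34 member and gate pairs tested were called, beside 15% of all gene and gate pairs in those gates. At a 2-fold minimum 8 of 41 pairs were called, beside 5.06% of all pairs. The other settings called 12 to 16, beside 6.04% to 21.1% of all pairs, and Sema3c in the aSHF gate was between -0.91 with overlapping gates and -2.06 with thinned counts. With the cells outside the gate taken off, the log2 ratio was -0.34 for Sema3c in the Arg1 gate, -0.55 for Plxnd1 and -0.17 for Nrp1 in the endothelial gate. The same step turned the sign for Nrp1 at E9.5 in the epithelial (0.26), BrM (0.090) and somitic (0.027) gates, and for Plxnd1 in the Arg1 gate at E8.5 (-0.15). For Ctrl E9.5 over E8.5 it turned Nrp1 in the endothelial gate (-0.054), Sema3a (-0.58) and Sema3c (-0.42) in the Arg1 gate and Sema3c in BrM (-0.59, from a bound). By its construction this step removes any difference that the rest of the library shares. Of 33 calls, 30 held with gates on the deposited counts, 31 with overlapping gates, 33 without the deepest cells, 22 with thinned counts and 16 with the cells outside the gate taken off, and 14 of 25 held with 1 more marker. These were calls of cKO over Ctrl at both stages and of Ctrl E9.5 over E8.5. They leave out Sema3c in the aSHF gate and Nrp1 in the endothelial gate at E9.5, and all calls between stages in cKO.

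The E8.5 libraries held fewer cells and fewer UMIs in total than those of E9.5. In them Sema3a, Sema3d and the A-type plexins had too few UMIs for a call in most gates.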

Other observations

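The cKO E9.5 library was the only one with 30 or more cells in the neuroblast gate (99 cells, against 20 in Ctrl E9.5), so these values have no counterpart. Plxna2 stood there at 18.3 UPM (12.9 to 25.2) and Sema3c at 19.8 UPM (14.1 to 26.9). In the Arg1 gate of the same library they stood at 13.2 UPM (11.6 to 14.9) and 19.5 UPM (17.6 to 21.5), with intervals that overlap those of the neuroblast gate. At least 1 of the 3 semaphorins was found in 20.2% of these cells and a neuropilin in 35.4% of them.

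Within the epithelial gate of Ctrl E9.5, the 27 cells with Foxa2, a gene of foregut endoderm, had Sema3c at 34.9 UPM and the 615 without it at 16.5 UPM, a log2 ratio of 1.08 (0.27 to 1.79). Sema3d stood at 12.3 and 19.1 UPM in the cells with and without Foxa2. This split was chosen after the levels had been seen, and no test was run on it.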
